A study of Oryctolagus cuniculus with 12 samples.

Results

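The genes described here are the rabbit zinc finger genes whose symbol is ZNF followed by a number. The gene table of the series held 211 such genes among 20566, and 166 of them were kept because their mean level over the 12 libraries was at least 5 CPM (the share of the library's counts, as counts per 1000000). The rule used a level averaged over all libraries, which a group with a high level can lift over the limit. Without the TL-3d libraries the mean of ZNF366 and ZNF668 was under 5 CPM, without the TL-3h libraries that of ZNF331 and ZNF668, without the control libraries that of ZNF135, ZNF331, ZNF484 and ZNF572, and without the TL-14d libraries that of ZNF135. The gene just inside the limit was ZNF331 at 5.03 CPM and the gene just outside it was ZNF180 at 4.83 CPM. The 45 genes below the limit are not described.

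The libraries came from conjunctiva of female Japanese White rabbits whose right eye had trabeculectomy (TL) with mitomycin C, an agent that crosslinks DNA and limits scarring. In trabeculectomy aqueous humor leaves the eye under a flap of sclera and gathers below the conjunctiva as a bleb. The TL-3h, TL-3d and TL-14d groups each held 3 libraries of operated conjunctiva with its bleb, and the number in the name gives the time since surgery in hours (h) or days (d). The control group was made of 3 libraries of left conjunctiva, the side without surgery. By the study's methods the operated eyes also received betamethasone and an antibiotic ointment, so the groups differ from the controls by surgery and drugs together. The labels name neither the animal nor its age, so a p-value here measures the spread between these libraries.

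Zinc finger proteins of this family carry tandem fingers, each of which folds around a zinc ion and reads a few bases of DNA, and the order of the fingers sets the sequence that a protein binds. Many members add a KRAB domain, which recruits TRIM28 (KAP1) and through it the histone methyltransferase SETDB1, the heterochromatin proteins and the NuRD deacetylase, so that the bound DNA is silenced. The same number series also holds proteins of quite different work, such as ribosome assembly, RNA processing, epithelial differentiation and activation of promoters. Genes of the KRAB kind often lie in tandem clusters that arose by duplication.

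The total count per library lay between 27111348 and 38591425. The factors that scale the library sizes for composition (TMM) were 0.77 to 0.78 in the TL-3h libraries and 1.03 to 1.13 in the other groups. Of 10 epithelial markers, 6 were tested, and their summed level lay between 4076 and 8562 CPM in the control libraries, 4059 and 6663 CPM at 3 hours, 6202 and 16312 CPM at 3 days, and 8623 and 12649 CPM at 14 days. KRT14, KRT13, KRT19 and MUC5AC were not among the genes tested. Leukocyte markers (9 of 11 tested) summed to 52.9 to 219 CPM in the control libraries, 1444 to 3690 CPM at 3 hours, 931 to 1526 CPM at 3 days, and 52.0 to 534 CPM at 14 days. Endothelial markers (4 of 4) summed to 62.2 to 263, 599 to 1205, 286 to 529 and 86.6 to 272 CPM in the same order. Fibroblast markers (7 of 7) summed to 12213 to 76496 CPM in the control libraries, 105219 to 125796 CPM at 3 hours, 1347 to 64879 CPM at 3 days, and 11067 to 57217 CPM at 14 days. Schwann cell markers (4 of 4) summed to 5.40 to 13.1, 4.94 to 13.5, 0.275 to 3.81 and 0.781 to 16.2 CPM in that order. Of 6 skeletal muscle markers 1 was tested, ACTA1, which had 91.6 CPM in control replicate 2, 239 CPM in TL-3d replicate 3 and at most 6.42 CPM in the other libraries. Mitochondrially encoded genes held 3.98 to 5.52% of the counts in the control libraries, 3.31 to 3.68% at 3 hours, 3.50 to 3.87% at 3 days and 4.21 to 5.38% at 14 days, so that the TL-3h and TL-3d libraries lay below every control library. In whole tissue, fewer cells of a type and less RNA per cell cannot be told apart, and the part of these cell mixtures in the results below was not tested.

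Of the 166 genes, 80 lay on placed chromosomes and 86 on sequence not placed on a chromosome in OryCun2.0. Mean FPKM over the 12 libraries, a value per transcript length, ran from 0.883 to 60.3 with a median of 5.12. The highest was ZNF326 at 60.3 FPKM, a subunit of the DBIRD complex that links transcript elongation to splicing. It was followed by ZNF207 at 51.3 FPKM, which loads the checkpoint protein BUB3 onto kinetochores, by ZNF330 at 32.1 FPKM, a nucleolar protein, by ZNF277 at 31.6 FPKM, and by ZNF146 at 26.4 FPKM. In the control group ZNF326 stood at 48.5 ± 1.42 FPKM (SD, n = 3), and ZNF207, ZNF277 and ZNF330 had 39.2 ± 4.46, 39.98 ± 4.55 and 38.6 ± 5.42 FPKM, so that these 3 neighbours in the order do not differ beyond their spread. The fifth place rests on the pooled mean, since in the control group ZNF219 (31.7 ± 5.003 FPKM) and ZNF362 (27.8 ± 4.66 FPKM) stood beside ZNF146 (27.5 ± 2.396 FPKM), and at 3 hours ZNF219 and ZNF362 had 8.66 ± 2.17 and 5.27 ± 1.18 FPKM. At 3 hours ZNF277 stood at 11.7 ± 1.07 FPKM and ZNF326 at 95.5 ± 25.3 FPKM. Members of the family can share reads, and the median gene had fractional values in 16.7% of its 12 counts, with a range from 0 to 100%. Among genes named below, high shares were those of ZNF335 (100%), ZNF135 (91.7%), ZNF10 and ZNF362 (75% each), and ZNF76, ZNF532 and ZNF146 (66.7% each).

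All 166 genes passed the filter on low counts and were among the 14835 genes tested. At 3 hours, 99 of the 166 (59.6%) differed from the control group at q of 0.05, where q is the p-value of the edgeR quasi-likelihood test adjusted over all genes tested, beside 45.4% of all genes tested and 51.3% of the 11050 genes at 5 CPM or more. Of these, 45 were higher (27.1%, beside 23.2% of all genes) and 54 lower (32.5%, beside 22.2%). Among the genes at 5 CPM or more, 27.3% were higher and 24.0% lower at 3 hours, so that the share of higher ZNF genes was near that background. At 3 days 33 genes (19.9%, beside 17.6%) differed, of which 31 were lower (18.7%, beside 7.0% of all genes) and 2 higher (1.2%, beside 10.6%), while 7.57% of the genes at 5 CPM or more were lower and 11.2% higher. At 14 days 0 of the 166 and 0 of all genes (0.0%) were past the threshold by edgeR. In the direct test of TL-3d against TL-3h, 90 genes (54.2%, beside 37.3%) differed, 34 of them higher (beside 18.4%) and 56 lower (beside 19.0%). Over the 3 times together 114 genes (68.7%, beside 52.4%) changed. The split by direction at 3 hours moves with the scaling. With library size alone and no composition factor, 15 genes were higher (beside 12.7% of all genes) and 88 lower (beside 38.2%) at 3 hours, the share of higher calls went from 45.5% to 14.6%, and the median of all genes moved to -0.47 on the log2 scale. Relative to that median, the median of the ZNF genes was -0.12, and with the composition factors it was -0.11.

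**Figure D1:**
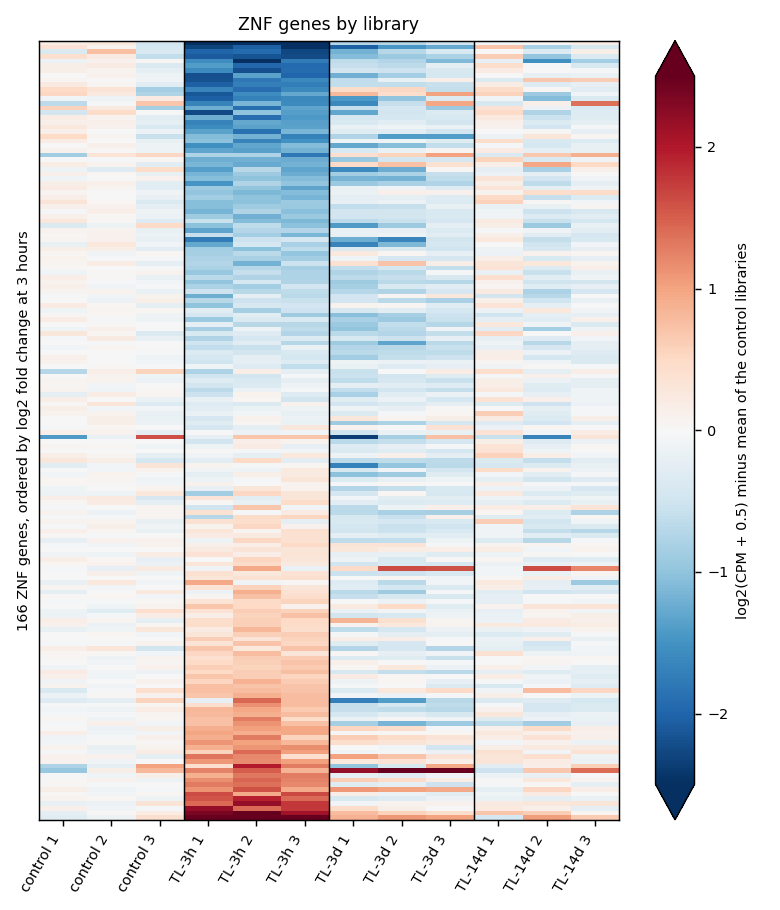
Each row is 1 of the 166 ZNF genes and each column 1 library, and the color gives log2(CPM + 0.5) minus the mean of the 3 control libraries. Genes are ordered by their log2 fold change at 3 hours, from -3.83 at the top to 3.19 at the bottom. The TL-3h libraries hold the strongest colors in both directions, the TL-3d libraries are mostly pale blue, and the TL-14d libraries are closest to the controls.

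The genes differed in direction at 3 hours and were mostly lower at 3 days. At 3 hours the log2 fold changes ran from -3.83 to 3.19, with the middle 50% between -0.89 and 0.50 and a median of -0.09, beside 0.02 for all genes. At 3 days the middle 50% lay between -0.60 and -0.09, and 132 of the 166 genes (79.5%) had a negative log2 fold change, beside 50.1% of all genes. The median at 3 days was -0.34, beside -0.00 for all genes. The Schwann cell sum and the mitochondrial share, given above, were also lower in every TL-3d library than in any control library. The leukocyte and endothelial sums were higher in every one. Gene by gene, 5 of the 9 leukocyte markers were higher past the threshold at 3 days, beside 10.6% of all genes. Of the 4 endothelial and 4 Schwann cell markers 0 passed it, beside 17.6% of all genes. The part of these in the result was not tested. In each library taken alone, the median difference of the ZNF genes from the control mean was -0.39, -0.32 and -0.30 in the TL-3d group and 0.03, 0.02 and -0.04 in the control libraries. On this measure every TL-3d library lay below every control library. The same median was -0.28, -0.08 and -0.11 at 3 hours and 0.02, -0.21 and -0.10 at 14 days. Counted by overlap, 71 genes (42.8%, beside 28.3% of all genes) were lower in all 3 TL-3h libraries than in any control library and 49 (29.5%, beside 28.9%) were higher. At 3 days 74 genes (44.6%, beside 21.7% of all genes) were lower in all 3 TL-3d libraries than in any control library, and 12 (7.23%, beside 23.8%) were higher.

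**Figure D2:**
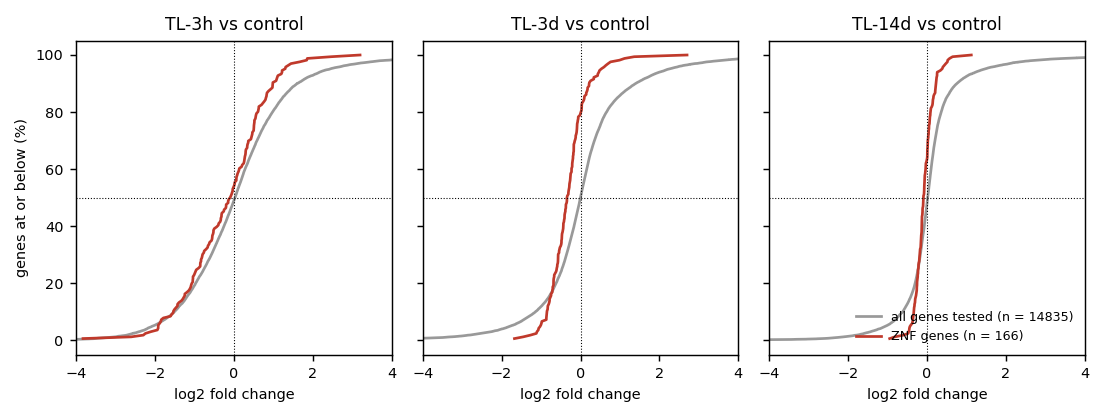
Cumulative share of genes (vertical axis, percent) at or below each log2 fold change against the control group (horizontal axis) for the 166 ZNF genes (red) and all 14835 genes tested (gray) in the 3 groups of operated eyes. At 3 days the red curve lies to the left of the gray one over most of its course, with medians of -0.34 and -0.00.

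The role lists were chosen with earlier results of these data known, and their counts stand beside 23.2% of all genes higher and 22.2% lower at 3 hours. Of 11 ZNF genes that serve RNA and the ribosome, 9 were among the 166 genes, and at 3 hours 5 rose and 1 fell, with a median log2 fold change of 0.62. That list was not tested against other genes. ZNF593 (chromosome 13, 139146926 to 139148583) is the relative of a yeast factor that leaves the nucleus with the large ribosomal subunit. It had 3.32, 4.08 and 4.62 CPM in the control libraries and 22.4, 25.2 and 18.6 CPM at 3 hours, a 5.504-fold rise (log2 fold change 2.46, SE 0.24, q = 6.27e-05). It had 7.095, 6.13 and 5.55 CPM at 3 days and 6.69, 6.38 and 4.13 CPM at 14 days, so that the TL-3d libraries still lay above every control library (q = 0.0737) and the TL-14d libraries overlapped with them. ZNF622 (chromosome 11, 41321973 to 41341473), the relative of the yeast factor Rei1 that acts late in the maturation of the same subunit, had 28.3, 27.1 and 27.5 CPM in the control libraries and 68.6, 72.2 and 64.5 CPM at 3 hours (log2 fold change 1.31, SE 0.12, q = 5.13e-05). Its TL-3d libraries, at 22.4, 23.7 and 19.2 CPM, lay below every control library, but the difference did not pass the threshold (q = 0.0689).

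ZNF326 (chromosome 13, 74432749 to 74465025) had 146, 137 and 149 CPM in the control libraries and 444, 279 and 450.4 CPM at 3 hours (log2 fold change 1.44, SE 0.20, q = 0.000327). The TL-3h libraries differed among themselves, and the lowest of them was still well above the controls. ZNF207 (chromosome 19, 21954555 to 21971091) had 95.8, 101 and 86.03 CPM in the control libraries, 212, 259 and 223 CPM at 3 hours and 145, 132 and 107 CPM at 3 days (log2 fold change 1.30, SE 0.15, q = 0.000121 at 3 hours). All 3 TL-3d libraries of ZNF207 were still above the controls, with a q of 0.0586. ZNF830, a factor in splicing, rose to 28.5 ± 1.09 CPM from 18.6 ± 1.22 CPM (SD, n = 3 each, log2 fold change 0.62, SE 0.15, q = 0.00647), a call that was lost with library size alone. ZNF638, an RNA-binding protein that also silences unintegrated viral DNA, was the member that fell, from 96.3, 106 and 101 CPM to 65.6, 68.3 and 89.4 CPM (log2 fold change -0.44, SE 0.13, q = 0.0206), and it was also lower than the same controls at 3 days. That 3-hour call was lost without control replicate 2 and in the fit of the 6 libraries alone, where q reached 0.0693. ZNF106, ZNF330 and ZNF346 did not pass the threshold at 3 hours, with log2 fold changes of 0.28, 0.26 and -0.33.

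The largest rise of all 166 genes was that of ZNF281 (chromosome 16, 70946997 to 70952293), a regulator that binds GC-rich promoters and is known from epithelial-mesenchymal transition and the DNA damage response. It stood at 11.7, 12.9 and 18.8 CPM in the control libraries and at 132, 163 and 103 CPM at 3 hours, 9.15-fold higher (log2 fold change 3.19, SE 0.37, q = 0.000134). At 3 days its 26.3, 30.8 and 29.1 CPM were above all controls (q = 0.0679), and at 14 days its libraries, at 10.4, 29.8 and 22.3 CPM, overlapped with the control group. Of the 9 promoter-binding and general regulators, all measured, 6 rose and 2 fell at 3 hours (beside 23.2% and 22.2% of all genes), with a median of 0.46. The smaller rises were those of ZNF263 (0.80), ZNF410 (0.61), ZNF143 (0.52), ZNF131 (0.46) and ZNF24 (0.33), and with library size alone each of these 5 calls was lost and ZNF131 and ZNF24 turned to -0.04 and -0.17. The call of ZNF24 held in 6 of 18 alternatives. ZNF410 is known for control of the NuRD gene CHD4, and CHD4 itself stood at 355 ± 62.5 CPM in the control libraries and 348 ± 23.7 CPM at 3 hours (SD, n = 3 each, q = 0.903).

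In this list, with TMM scaling, a pair of closely related genes lay on opposite sides. ZNF143, which binds promoters of many housekeeping genes, went from 26.6, 26.3 and 26.3 CPM to 40.9, 33.3 and 39.2 CPM. Its paralog ZNF76 (chromosome 12, 25351095 to 25383821) went from 41.1, 38.4 and 30.2 CPM to 15.4, 9.38 and 13.1 CPM (log2 fold change -1.54, SE 0.24, q = 0.000644). With this scaling the libraries did not overlap for either gene. With library size alone the log2 fold change of ZNF143 was 0.02 and its call was lost, while the fall of ZNF76 kept its call. ZNF148 (ZBP-89), which binds GC-rich promoters as ZNF281 does and is its paralog, fell from 98.5, 98.7 and 73.4 CPM to 49.2, 43.4 and 57.04 CPM (log2 fold change -0.85, SE 0.15, q = 0.00132). ZNF711, an X-linked partner of the histone demethylase PHF8, did not pass the threshold at 3 hours (0.00).

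Outside the lists, 5 further genes were among the 10 with the largest rises at 3 hours. ZNF445 (chromosome 9, 8273665 to 8307410), a KRAB protein that keeps imprints, had 123, 120.1 and 106 CPM in the control libraries and 348, 446 and 309 CPM at 3 hours (log2 fold change 1.66, SE 0.15, q = 4.70e-05). ZNF408 (chromosome 1, 186070649 to 186075934), known from the development of retinal vessels, went from 16.1, 13.8 and 14.4 CPM to 69.2, 40.1 and 51.0 CPM (log2 fold change 1.86, SE 0.22, q = 0.000178). The endothelial sum was also higher in the TL-3h libraries, as given above, with 2 of its 4 markers past the threshold (beside 23.2% of all genes higher). Its part in the level of ZNF408 was not tested. ZNF324 went from 14.5 ± 3.12 CPM to 52.1 ± 14.1 CPM (1.84), ZNF239 from 8.68 ± 0.876 to 20.2 ± 3.19 CPM (1.22) and ZNF668 from 3.18 ± 0.334 to 8.26 ± 2.096 CPM (1.37, SD, n = 3 each). In all 5 genes the TL-3h libraries lay above every control library, but the mean of ZNF668 was under the limit of 5 CPM without the TL-3h group, so its selection favored a rise. The 15 genes that kept their rise with library size alone were ZNF7, ZNF200, ZNF207, ZNF217, ZNF239, ZNF281, ZNF324, ZNF326, ZNF335, ZNF408, ZNF445, ZNF593, ZNF622, ZNF623 and ZNF668, and of the 30 that lost it 7 turned sign without passing the threshold.

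**Figure D3:**
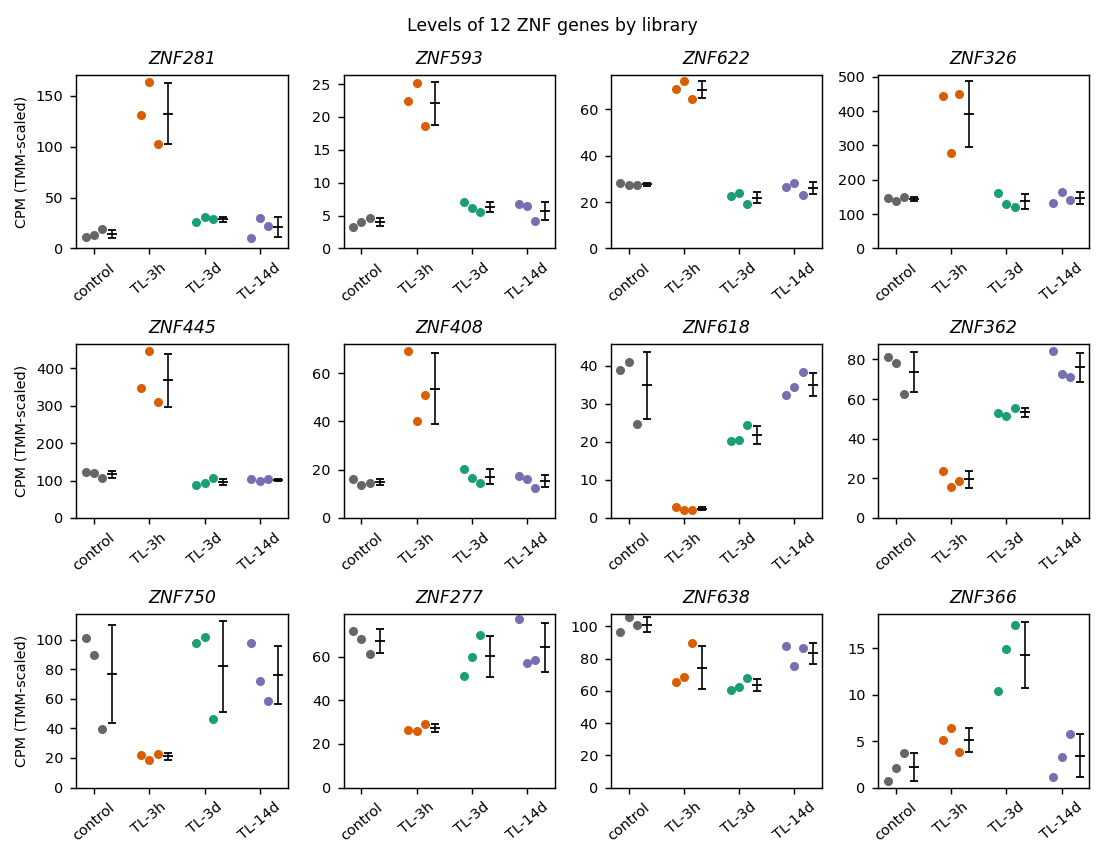
Level of 12 ZNF genes in every library (dots, CPM with TMM scaling, linear axes from 0) in the control, TL-3h, TL-3d and TL-14d groups, with the mean and SD of each group in black (n = 3). ZNF281 rises from at most 18.8 CPM in the controls to at least 103 CPM at 3 hours, ZNF618 falls from at least 24.8 to at most 3.00 CPM, and ZNF366 is highest at 3 days.

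The largest fall was that of ZNF618 (unplaced sequence, 13524992 to 13700670), a partner of UHRF2 at hydroxymethylated DNA. It stood at 38.9, 40.9 and 24.8 CPM in the control libraries and 2.998, 2.16 and 2.195 CPM at 3 hours, so that 0.0704 of the control level was left (log2 fold change -3.83, SE 0.23, q = 1.81e-05). At 3 days it was at 20.3, 20.4 and 24.5 CPM and at 14 days at 32.3, 34.6 and 38.3 CPM. Its fall at 3 hours had the smallest q of the 166 genes. The 3-day level was lower than the control group (q = 0.0466), a call that 12 of 18 alternatives lost, with q up to 0.150.

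ZNF395 (chromosome 2, 41260226 to 41288586), a gene induced by hypoxia in other settings, fell from 106, 92.6 and 51.9 CPM to 18.5, 17.6 and 16.7 CPM (log2 fold change -2.25, SE 0.38, q = 0.00108). ZNF704, of the same small family, fell from 10.4, 12.5 and 11.8 CPM to 3.57, 1.37 and 3.07 CPM (log2 fold change -2.11, SE 0.41, q = 0.00242). In both genes the groups did not overlap, and ZNF395 was uneven at 14 days, with 123, 40.8 and 61.7 CPM. ZNF362 (unplaced sequence, 56111202 to 56133091), a paralog of the transcription factor ZNF384, fell from 81.05, 78.04 and 62.4 CPM to 23.9, 15.6 and 18.9 CPM (log2 fold change -1.92, SE 0.17, q = 4.26e-05), although its count was fractional in 75% of the libraries. ZNF174, whose SCAN domain pairs with like proteins and which represses growth factor promoters, fell from 47.6, 42.8 and 33.6 CPM to 9.49, 12.2 and 11.96 CPM (log2 fold change -1.88, SE 0.18, q = 6.68e-05). ZNF277, the fourth of the genes by mean FPKM, fell from 71.9, 68.04 and 61.1 CPM to 26.6, 25.8 and 29.3 CPM (log2 fold change -1.30, SE 0.16, q = 0.0001796). The other falls among the 10 largest were those of ZNF74, ZNF839, ZNF41, ZNF454 and ZNF827, with log2 fold changes of -2.61, -2.30, -1.94, -1.92 and -1.92. All 54 genes that fell at 3 hours also fell with library size alone, by DESeq2 and by edgeR with DESeq2 size factors, and 52 kept the call with the replicate block. With 1 library left out 46 to 54 kept it, and 44 kept it in all 18 alternatives.

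Of the 11 epithelial and connective tissue regulators, 9 were among the 166 genes, and ZNF703 was tested but lay below the limit of 5 CPM. At 3 hours 1 of the 9 rose and 4 fell (beside 23.2% and 22.2% of all genes), with a median of -1.28. The gene that rose was ZNF217, an oncogene product that works with corepressors, from 87.9, 93.6 and 94.04 CPM to 197, 185 and 164 CPM (log2 fold change 0.98, SE 0.12, q = 0.000163). ZNF750 (unplaced sequence, 329301217 to 329310590), which drives the terminal differentiation of stratified epithelium, fell from 101, 89.7 and 39.3 CPM to 22.1, 18.5 and 22.9 CPM (log2 fold change -1.86, SE 0.39, q = 0.00338). It had 97.6, 102 and 46.5 CPM at 3 days. The control and TL-3d libraries with the lowest ZNF750 were replicate 3 of each group, which also held the lowest epithelial sums (4076 and 6202 CPM). At 14 days ZNF750 had 97.7, 72.1 and 58.4 CPM beside epithelial sums of 8623, 12649 and 9225 CPM, so that the library with the highest ZNF750 held the lowest sum. At 3 hours the epithelial sums (4059 to 6663 CPM) overlapped with those of the control group. These sums cover 6 of 10 markers, of which 1 was higher and 1 lower past the threshold at 3 hours (beside 23.2% and 22.2% of all genes). The part of epithelial content in the level of ZNF750 was not tested. ZNF503, a developmental regulator, fell from 41.3, 36.9 and 26.4 CPM to 11.2, 13.3 and 13.2 CPM (log2 fold change -1.47, SE 0.20, q = 0.000298), and ZNF516, known from brown fat, from 43.4 ± 3.31 to 26.5 ± 4.03 CPM (SD, n = 3 each, -0.71). ZNF365 did not pass the threshold at 3 hours (0.77, q = 0.0764). At 3 days 0 of the 9 passed it, beside 17.6% of all genes.

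The connective tissue members of that list varied among the libraries of a group. ZNF521, a regulator of mesenchymal progenitors, had 16.7, 26.1 and 43.1 CPM in the control libraries, 7.995, 11.7 and 8.45 CPM at 3 hours, 8.34, 17.7 and 52.3 CPM at 3 days and 20.2, 29.02 and 70.4 CPM at 14 days. Its paralog ZNF423, which marks cells bound to become fat cells, had 3.82, 9.56 and 10.9 CPM, 4.11, 4.11 and 1.79 CPM, 10.1, 11.1 and 15.4 CPM and 5.68, 12.2 and 14.2 CPM in the same order. ZNF469, loss of which causes brittle cornea syndrome, had 8.59, 20.7 and 72.9 CPM in the controls and 4.22, 13.2 and 39.95 CPM at 3 days. In the control, TL-3d and TL-14d groups replicate 3 was the highest for all 3 genes, and it also held the highest fibroblast sum of its group (76496, 64879 and 57217 CPM). None of the 3 passed the threshold at 3 hours or 3 days (lowest q 0.0521, ZNF423 at 3 hours). At 3 hours the log2 fold changes of ZNF521 and ZNF423 were -1.61 and -1.28, beside fibroblast sums of 105219 to 125796 CPM. Of the 7 fibroblast markers 0 passed the threshold at 3 hours, beside 45.4% of all genes. The part of these sums in the levels was not tested.

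Of 8 partners of corepressor and histone methyltransferase complexes, 6 were measured, and at 3 hours 1 rose and 3 fell (beside 23.2% and 22.2% of all genes). ZNF532, ZNF592 and ZNF687 are related proteins that bind the chromatin reader ZMYND8. ZNF532 fell from 133, 129 and 119.8 CPM to 63.7, 57.96 and 59.5 CPM (log2 fold change -1.07, SE 0.13, q = 0.000206), and ZNF687 fell from 59.1, 53.8 and 42.9 CPM to 27.2, 25.8 and 20.2 CPM (log2 fold change -1.09, SE 0.19, q = 0.001103). ZNF592 went the other way, from 52.5, 46.2 and 76.9 CPM to 73.6, 88.1 and 85.9 CPM (log2 fold change 0.50, SE 0.18, q = 0.0444), with groups that overlapped and a call that held in 3 of 18 alternatives. ZNF827, which brings NuRD to telomeres, fell from 26.01, 24.99 and 23.2 CPM to 5.04, 6.85 and 7.76 CPM (log2 fold change -1.92, SE 0.30, q = 0.000749). ZNF644, a partner of the methyltransferases G9a and GLP, and the SUMO ligase ZNF451 did not pass the threshold (0.11 and -0.10). At 3 days 0 of the 6 passed it, beside 17.6% of all genes.

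**Figure D4:**
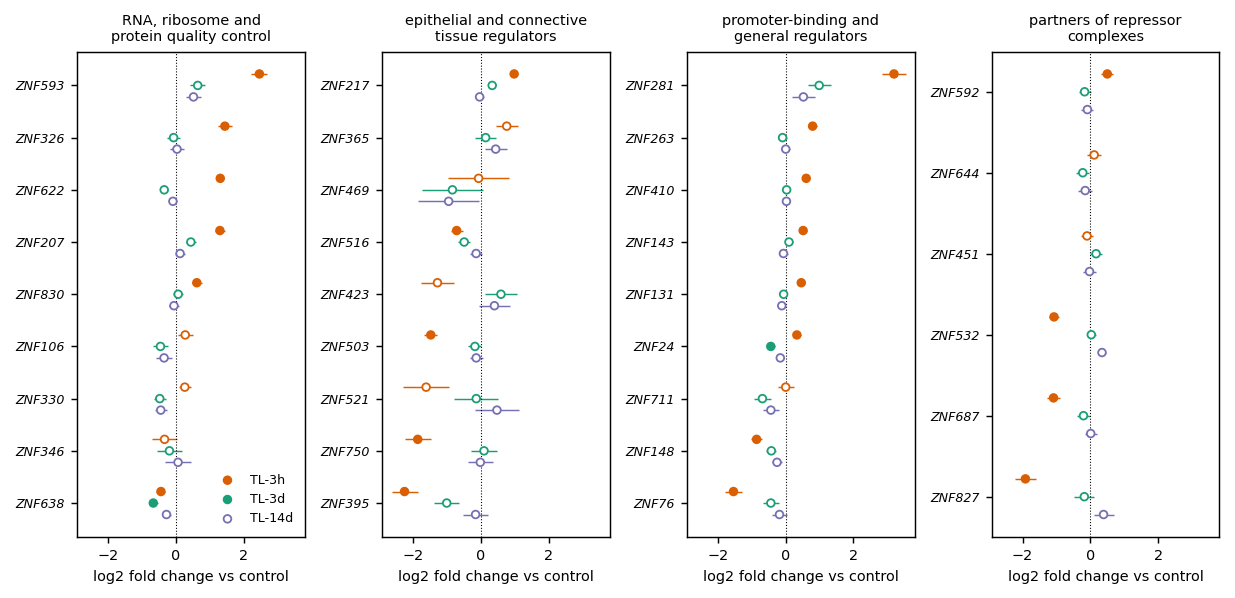
Log2 fold change against the control group (points) with its standard error (bars) for the genes of 4 role lists that were among the 166, at 3 hours (orange), 3 days (green) and 14 days (purple). Filled points passed q of 0.05. With TMM scaling, 5 of 9 RNA and ribosome genes and 6 of 9 promoter-binding genes were higher at 3 hours, 4 of 9 epithelial and connective tissue genes were lower, and 0 points passed at 14 days. With library size alone, ZNF131 and ZNF24 turned to -0.04 and -0.17 at 3 hours.

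The 31 falls at 3 days reached at most -1.67 on the log2 scale. Each of them, and each of the 2 rises, lost its call when control replicate 2 or TL-3d replicate 2 was left out, which left 0 calls by edgeR, with 59 and 57 of the 166 genes (35.5% and 34.3%) at an unadjusted p under 0.05. In the same fits 2.46% and 2.37% of all genes were called, and 28.3% and 26.7% had an unadjusted p under 0.05. The smallest q was that of ZNF638, with 96.3, 106 and 101 CPM in the control libraries and 60.5, 62.4 and 68.1 CPM at 3 days (log2 fold change -0.67, SE 0.13, q = 0.0153). The largest fall was that of ZNF74 (unplaced sequence, 370406994 to 370415191), a KRAB gene of the region lost in DiGeorge syndrome, from 22.5, 18.3 and 12.6 CPM to 3.85, 5.97 and 6.91 CPM (log2 fold change -1.67, SE 0.44, q = 0.0302). It was followed by ZNF268, from 21.2, 15.7 and 9.93 CPM to 8.72, 5.33 and 5.35 CPM (log2 fold change -1.27, SE 0.32, q = 0.0266). The highest TL-3d library of each of these 3 genes lay below the lowest control library. ZNF197 (chromosome 9, 8130150 to 8147258) had 25.1, 28.7 and 37.7 CPM in the control libraries, 31.98, 29.3 and 31.1 CPM at 3 hours and 8.94, 15.1 and 18.6 CPM at 3 days (log2 fold change -1.10, SE 0.25, q = 0.01905 at 3 days and q = 0.970 at 3 hours). ZNF304, a KRAB protein that recruits corepressors to silence tumor suppressor genes, rose to 11.2, 14.8 and 11.2 CPM at 3 hours from 6.27, 7.104 and 6.195 CPM and stood at 3.45, 2.62 and 3.24 CPM at 3 days (log2 fold change -1.07, SE 0.23, q = 0.0179), and its rise at 3 hours was lost with library size alone. ZNF576, ZNF667, ZNF45, ZNF135, ZNF16 and ZNF416 had log2 fold changes of -1.03, -0.99, -0.98, -0.87, -0.87 and -0.81 at 3 days, and of -1.12, -1.33, -0.50, -0.56, -1.10 and -0.76 at 3 hours against the same controls. Of these 6, ZNF45 and ZNF135 were not past the threshold at 3 hours, and ZNF135 was under the limit of 5 CPM without the control group, so its selection favored a fall. Smaller falls at 3 days were those of ZNF3 (-0.54), ZNF32 (-0.58), ZNF236 (-0.45) and ZNF773 (-0.59).

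The 2 genes that were higher at 3 days, ZNF366 and ZNF668, were both under the limit of 5 CPM without the TL-3d group, and ZNF366 had a mean of 3.35 CPM over the other 9 libraries. Their selection favored a rise at 3 days, and their values are given as a description. ZNF366 (unplaced sequence, 127936715 to 128002603), known as DC-SCRIPT and made by dendritic cells, had 0.736, 2.15 and 3.71 CPM in the control libraries, 5.15, 6.39 and 3.805 CPM at 3 hours, 10.4, 14.97 and 17.5 CPM at 3 days and 1.18, 3.34 and 5.83 CPM at 14 days, 6.50-fold higher at 3 days (log2 fold change 2.70, SE 0.64, q = 0.0229). The leukocyte sum was higher both at 3 hours (1444 to 3690 CPM) and at 3 days (931 to 1526 CPM). Of its 9 markers 8 and 5 were higher past the threshold, beside 23.2% and 10.6% of all genes. All TL-3h libraries of ZNF366 lay above every control library, but the difference did not pass the threshold (q = 0.137). The part of leukocytes in its level was not tested. ZNF668 had 3.56, 2.93 and 3.06 CPM in the control libraries and 7.27, 6.84 and 6.602 CPM at 3 days (log2 fold change 1.12, SE 0.26, q = 0.0221), and it had also risen at 3 hours.

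The number of calls at 3 days rested on single libraries, although the median did not. Without control replicate 1 the 31 lower genes became 2, without control replicate 2 they became 0, without TL-3d replicate 1 they became 2 and without TL-3d replicate 2 they became 0, while without TL-14d replicate 1, which is in neither group, they became 43. Of all genes, 0.999%, 0.698%, 0.53%, 0.403% and 10.6% were lower in the same order, beside 7.0% with the 12 libraries. The highest q of ZNF638 over all alternatives was 0.0610, that of ZNF74 0.106, that of ZNF197 0.0649 and that of ZNF366 0.0790. Over the same sets of libraries the median of the 166 genes stayed between -0.38 and -0.31. By DESeq2's own test 59 genes were lower (beside 13.9% of all genes) and 8 higher (beside 16.2%). With only the control and TL-3d libraries, 39 were lower (beside 9.95% of all genes) and 4 higher (beside 12.7%).

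The direct test of TL-3d against TL-3h does not take the control group as its reference, but the control libraries enter the filter, the scaling and the estimate of the spread. Without 1 of them 84 to 89 of the ZNF genes were called in place of 90, beside 5065 to 5617 of all genes in place of 5537. The direct test shares its libraries with the comparisons above, so its values stand here beside those. ZNF618 was 8.85-fold higher at 3 days than at 3 hours (log2 fold change 3.15, SE 0.23, q = 2.41e-05). ZNF367 had 17.3, 13.98 and 6.85 CPM in the control libraries, 2.34, 3.65 and 4.61 CPM at 3 hours and 21.2, 16.3 and 24.4 CPM at 3 days (log2 fold change 2.54, SE 0.46, q = 0.00202). ZNF750 and ZNF423 were also higher, by 1.95 and 1.87 on the log2 scale. ZNF879 (unplaced sequence, 159808413 to 159829951) had 29.2, 27.1 and 20.8 CPM in the control libraries, 11.2, 10.4 and 10.9 CPM at 3 hours and 35.6, 42.8 and 33.2 CPM at 3 days (log2 fold change 1.78, SE 0.21, q = 0.000211), so that its TL-3d libraries lay above every control library as well (q = 0.0964 against the control group). The lowest values against TL-3h were those of ZNF331, an imprinted gene (-2.26), ZNF281 (-2.20), ZNF304 (-1.99) and ZNF445 (-1.94). ZNF331 had 4.18, 4.45 and 8.08 CPM in the control libraries, 4.57, 15.3 and 9.402 CPM at 3 hours and 1.27, 1.72 and 3.102 CPM at 3 days. Its mean without the TL-3h group was 4.18 CPM, under the limit of 5 CPM, so its selection favored a high level at 3 hours and its value is given as a description. The TL-3h libraries of ZNF331 were far apart, and 1 of them lay within the control range. With library size alone 60 genes were higher (beside 34.2% of all genes) and 22 lower (beside 8.31%) in this test, and the median turned from -0.23 to 0.24, with -0.05 and 0.43 for all genes.

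At 14 days the levels were near those of the control group, and 0 of the 166 genes passed the threshold by edgeR and 0 by DESeq2, which called 2.47% of all genes. An unadjusted p under 0.05 was reached by 8 of the 166 genes (4.82%) and by 1538 of all genes tested (10.4%). The smallest q was that of ZNF879 (0.412), with 28.7, 49.9 and 36.2 CPM at 14 days beside 29.2, 27.1 and 20.8 CPM in the control group. Its 14-day and control libraries overlapped. The median log2 fold change was -0.09 beside 0.02 for all genes, 18 genes (10.8%, beside 5.11% of all genes) were lower in every TL-14d library than in any control library, and 4 (2.41%, beside 6.03%) were higher. Without TL-14d replicate 1, 716 of all genes (4.74%) passed the threshold, and 1 of the 166 did, ZNF330, with 71.1, 66.8 and 57.3 CPM in the control libraries and 60.99, 42.98 and 39.3 CPM at 14 days (log2 fold change -0.66, q = 0.0348 without that library).

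Part of the genes lie side by side. With a gap of at most 200 kb, a limit set after the values were seen, 45 of the 166 genes fell into 11 runs of 3 or more. On unplaced sequence the positions are those of a joined sequence, so 2 neighbours there need not be on 1 piece of the genome. Over all 44 pairs of neighbours within the gap, which include runs of only 2 genes outside the 11 runs, both genes were called in 17 pairs at 3 hours, 10 in the same direction and 7 in opposite directions, in 5 pairs at 3 days, all lower in both, and in 12 pairs at 3 days against 3 hours, 11 in the same direction and 1 in opposite directions. These counts follow in part from the share of the 166 genes called, which was 59.6%, 19.9% and 54.2% in the same order. They follow in part also from the balance of the calls, of which 31 of 33 were lower at 3 days. They were not tested and are not read as a trait of neighbours. The runs in the rest of this paragraph were chosen from those with calls in both directions at 3 hours. The run that holds ZNF304 (0.92) and ZNF416 (-0.76) had both as well and is not described further. The runs of the next paragraph were chosen after their values were seen. In the run of ZNF16, ZNF250 and ZNF7 (unplaced sequence, 372255975 to 372381917), ZNF16 fell from 18.9, 18.6 and 14.1 CPM to 5.804, 9.87 and 8.41 CPM (-1.10), whereas ZNF250 and ZNF7 rose by 1.08 and 1.07. In the run from ZNF268 to ZNF26 (unplaced sequence, 278883747 to 279042036), ZNF268 and ZNF10, the KRAB gene from which the repressor domain was first taken for use as a tool, fell (-1.43 and -0.55), and ZNF84 and ZNF26 rose (0.63 and 0.70). In the run from ZNF205 to ZNF174, ZNF200 and ZNF263 rose (0.98 and 0.80) beside the fall of ZNF174 (-1.88). Without composition factors ZNF7 and ZNF200 kept their rise, and the calls of ZNF250, ZNF84, ZNF26 and ZNF263 were lost.

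On chromosome 9, where ZNF197 sits between ZNF35 and ZNF445, the 3-hour log2 fold changes were 0.01 for ZNF197, 0.51 for ZNF35 and 1.66 for ZNF445, and at 3 days ZNF197 alone of the 3 passed the threshold. The run on chromosome 7 (2626852 to 2940759) held ZNF746, ZNF777, ZNF783, ZNF282, ZNF398 and ZNF425, with 3-hour log2 fold changes of 0.57, -0.39, 0.98, -0.62, -0.05 and -0.96. The run of ZNF135, ZNF329, ZNF274, ZNF584, ZNF324 and ZNF446 included ZNF274, which binds the ends of other ZNF genes and brings SETDB1 to them, and it had 38.5, 32.7 and 38.3 CPM in the control libraries, 47.7, 35.3 and 42.0 CPM at 3 hours and 22.6, 20.5 and 20.1 CPM at 3 days (log2 fold change -0.79, SE 0.20, q = 0.0277).

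**Figure D5:**
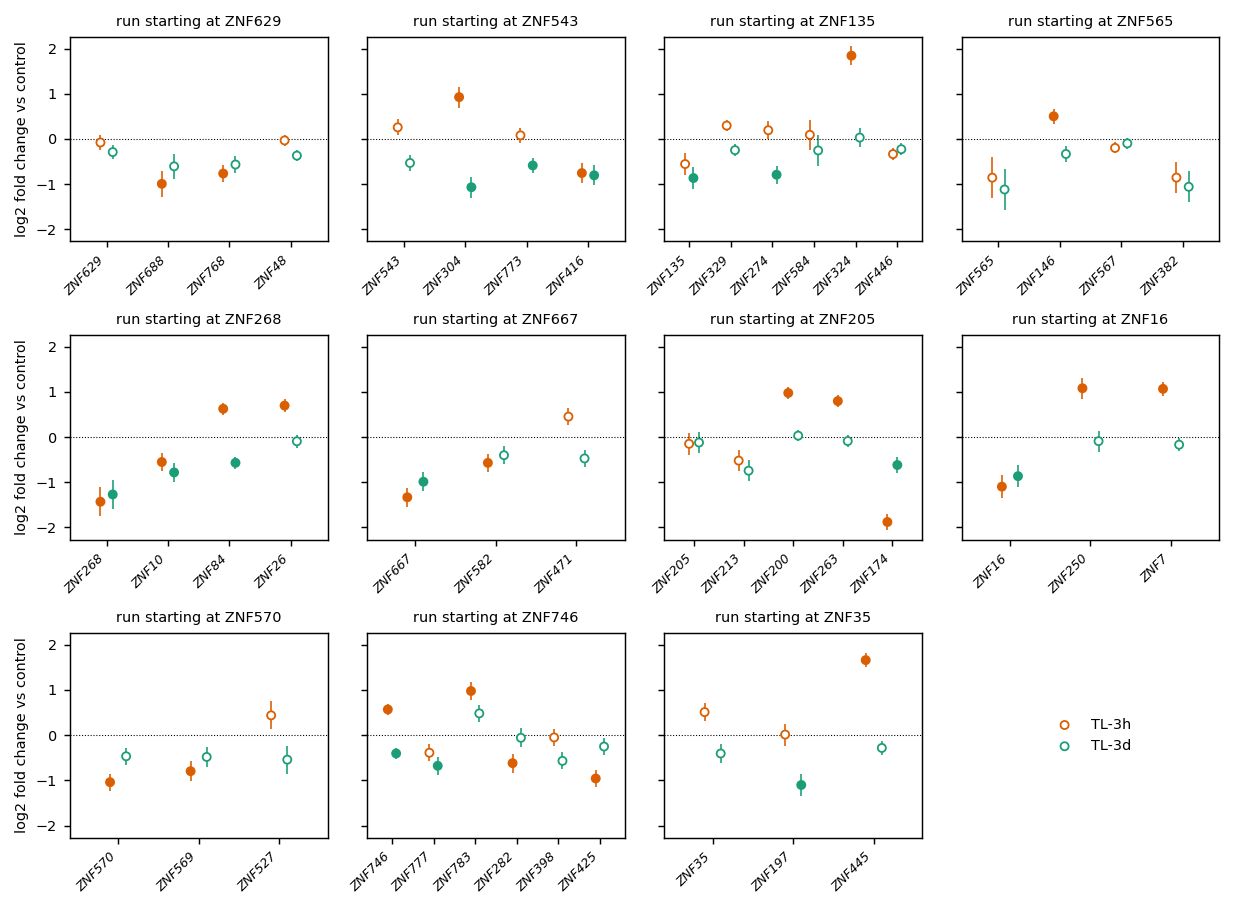
Log2 fold change against the control group with its standard error for the 45 genes in 11 runs of neighbouring ZNF genes, in the order of their positions, at 3 hours (orange) and 3 days (green), where filled points passed q of 0.05. At 3 hours genes of 1 run lie on both sides of 0, as ZNF16 (-1.10) and ZNF250 (1.08) do, and at 3 days the filled points all lie below 0, as 31 of the 33 calls of the 166 genes do. The rise of ZNF250 lost its call with library size alone.

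The transcript table listed 429 transcripts of the 166 genes, and 386 were tested. At 3 hours 40 were higher (10.4%, beside 14.1% of all transcripts tested) and 63 lower (16.3%, beside 14.1%). At 3 days 2 were higher (0.518%, beside 3.24%) and 13 lower (3.37%, beside 1.88%). Transcripts of 1 gene were called in both directions for ZNF134 and ZNF711 at 3 hours and for ZNF711 at 3 days. No share over all genes is given beside these, so they are a description only. ZNF711 did not pass the threshold as a whole gene at either time, and its 3-hour level in the TL-3h libraries, 70.1, 120.5 and 69.8 CPM, was uneven. The upper and lower 83 genes by mean level (median 23.1 CPM) had 31 higher and 26 lower against 14 higher and 28 lower at 3 hours. Of all genes at 5 CPM or more, 32.3% were higher and 21.5% lower above the same median, and 18.3% higher and 28.5% lower below it. At 3 days the upper genes had 0 higher and 13 lower, and the lower genes 2 higher and 18 lower, beside 11.1% higher and 8.05% lower, and 11.3% higher and 6.69% lower, of all genes at those levels.

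The partners through which KRAB proteins silence DNA were read from a list of 22 genes, of which 20 were measured. At 3 hours 5 rose and 9 fell (beside 23.2% and 22.2% of all genes, median -0.16), and with library size alone 1 rose and 14 fell (median -0.66), beside 12.7% and 38.2% of all genes and their median of -0.47. At 3 days 1 rose and 1 fell (beside 10.6% and 7.0% of all genes, median -0.01), and at 14 days 0 passed the threshold. TRIM28, the protein that the KRAB domain binds, had 116, 105 and 103 CPM in the control libraries, 178, 179 and 180.4 CPM at 3 hours and 106, 101 and 100.5 CPM at 3 days (log2 fold change 0.73, SE 0.10, q = 0.000322 at 3 hours). Its TL-3h libraries lay far above both groups. SETDB1, the methyltransferase that TRIM28 brings, did not pass the threshold (66.4 ± 4.44 and 59.9 ± 6.71 CPM, q = 0.315), while its cofactor ATF7IP fell (log2 fold change -1.13, SE 0.20, q = 0.00149). The heterochromatin proteins CBX1, CBX3 and CBX5, which read the mark set by SETDB1, all fell, with log2 fold changes of -0.48, -0.45 and -1.57. CBX5 went from 182, 175 and 143 CPM to 53.05, 51.3 and 64.4 CPM and was at 142, 136 and 157 CPM at 3 days.

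Subunits of the HUSH complex, which works with SETDB1, moved apart at 3 hours. MPHOSPH8 rose from 41.9, 46.3 and 48.3 CPM to 115, 91.6 and 101 CPM (log2 fold change 1.17, SE 0.15, q = 0.0002203), and FAM208A (TASOR) and PPHLN1 fell (-1.02 and -0.41). DNMT1, which maintains DNA methylation, fell (-1.01), as did the remodelers SMARCAD1 (-1.36) and CHD3 (-1.03). HDAC1, RBBP4, MORC2 and MORC3 did not pass the threshold (0.07, 0.10, -0.18 and 0.09). RBBP7, MTA2 and MTA1, all of NuRD, rose (0.52, 0.67 and 0.26). At 3 days CHD3 was still lower (274 ± 21.7 CPM beside 494 ± 57.02 CPM, SD, n = 3 each, log2 fold change -0.85, SE 0.18, q = 0.0171) and MTA2 was still higher (0.49, q = 0.0362). Without composition factors the 3-hour rise of MPHOSPH8 passed the threshold, the calls of TRIM28, RBBP7, MTA2 and MTA1 were lost and MTA1 turned to -0.24, and the call of MTA1 held in 2 of 18 alternatives. That of PPHLN1 was lost without control replicate 1 or 2 or TL-3h replicate 2, with q up to 0.0901. The 3-day call of CHD3 was lost without control replicate 1 or 2 or TL-3d replicate 1 or 2, with q up to 0.0656, and that of MTA2 in 11 of 18 alternatives, with q up to 0.130.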

How the data were processed

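RNA of rabbit conjunctiva was sequenced in 12 libraries, 3 in each of 4 groups, which were taken from the sample labels. The authors mapped the reads to the rabbit genome OryCun2.0, and the submitters' processing notes name STAR 2.6.0c. The authors deposited estimated counts, which had not been divided by library size and need not be whole, and FPKM values, which are divided by transcript length and depth, for genes and for transcripts. FPKM served only for the order of levels between genes. The counting of reads that fit several family members is not given in the sources used here, and such sharing could blur differences between close paralogs. The library kit marks strand, and whether counting used strand is not given in the sources used here.

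Estimated counts were rounded. The filter filterByExpr of edgeR 4.0.16 (R 4.3.3, minimum count 10, minimum total count 15) kept 14835 genes, and counts were normalized by TMM. A single quasi-likelihood fit without covariates took in the 12 libraries, with Benjamini-Hochberg adjustment over all genes tested and a threshold of 0.05. Log2 fold changes used a prior count of 0.125, and CPM are TMM-scaled except in the rule for the members. The procedure was tested on simulated data. Libraries of 1 group were checked and were not copies of each other. The sources used here do not match left eyes to right eyes, so samples were treated as unpaired.

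The members and gene lists were chosen with earlier results of these data known. Named were the 10 genes with the largest and the 10 with the smallest log2 fold change past the threshold in TL-3h, in TL-3d and in TL-3d against TL-3h, the 5 highest by FPKM, the genes of the role lists that were among the members, the measured genes of the KRAB partner list, and the genes beside the limit of 5 CPM. Genes named for their neighbours, for their paralogs or as single counts (ZNF7, ZNF10, ZNF26, ZNF35, ZNF200, ZNF250, ZNF274, ZNF134 and the run on chromosome 7) were chosen after their values were seen. The alternatives were library size alone, DESeq2 1.42.0 size factors, DESeq2's own test, no filter, only the 6 libraries compared, the replicate number as a block, and each of the 12 libraries left out. Protein domains and promoter motifs of the members were not analysed here.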

Additional observations from a re-analysis of the deposited data

Results flagged for a closer look

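The change against the control group differed between 3 hours and 3 days for 90 of the 166 ZNF genes (54.2%, beside 37.3% of all genes), by the direct edgeR test of TL-3d against TL-3h. For 6 of them the gene was higher than the control group at 3 hours and lower at 3 days, each past the threshold (3.61% of the ZNF genes, beside 0.256% of all genes tested and 0.326% of those at 5 CPM or more), and both comparisons used the same control libraries. The log2 differences of TL-3d from TL-3h were -1.99 for ZNF304, -1.47 for ZNF22, -1.20 for ZNF84, -0.97 for ZNF746, -0.84 for ZNF202 and -0.77 for ZNF24. ZNF22 had 54.6, 52.6 and 64.99 CPM in the control libraries, 103, 112 and 90.7 CPM at 3 hours and 38.2, 36.9 and 35.3 CPM at 3 days, and its 3 groups did not overlap. ZNF746 (PARIS), a repressor of the mitochondrial regulator PGC-1α, had 23.4, 20.9 and 24.4, 30.7, 35.3 and 35.9 and 18.04, 18.5 and 15.3 CPM in the same order. ZNF202, a repressor of lipid metabolism genes, had 27.1, 29.7 and 25.1, 35.7, 32.9 and 35.2 and 18.6, 18.9 and 20.4 CPM, and ZNF24 had 166, 172 and 145, 198, 224 and 187 and 115, 124 and 119 CPM. Without composition factors the rise of each of the 6 at 3 hours was lost, and ZNF202 and ZNF24 turned to -0.16 and -0.17, and these 2 calls held in 7 and 6 of 18 alternatives. The difference between 3 days and 3 hours was lost for ZNF24 with library size alone and kept its call in all 18 alternatives for the other 5 genes. Its direction follows from how the 6 genes were chosen, so these tallies add no support. The fall of each at 3 days was lost without control replicate 2 or TL-3d replicate 2. It held in 2 of 18 alternatives for ZNF746, and in 15 for ZNF84, 14 for ZNF304, 14 for ZNF202, 13 for ZNF24 and 12 for ZNF22.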

How the results depend on the processing

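With library size alone, 15 genes were higher and 88 lower at 3 hours (median -0.59), and 60 were higher and 22 lower at 3 days against 3 hours (median 0.24, a reversal). The same setting reversed ZNF131 (-0.038), ZNF202 (-0.16) and ZNF24 (-0.17) at 3 hours and ZNF143 (0.061) at 3 days against 3 hours. By DESeq2's test 67 genes differed at 3 days, 59 lower and 8 higher. With only the 6 libraries compared, 4 were higher and 39 lower at 3 days. With the replicate block, 4 were higher and 24 lower at 3 days, beside 1637 and 1082 of the 14835 genes tested. With it the calls were 99 at 3 hours and 86 at 3 days against 3 hours, beside 6946 and 5831 of all genes. Of 18 pairs of libraries with 1 replicate number, 8 deviated together at r over 0.1 (r from -0.15 to 0.48), and 1 of 12 libraries correlated best with their own number in every other group. Of the 36 pairs with different numbers, 8 were over 0.1, and in 18 of 36 comparisons of a library with another group the best match had its own number. Since not every pair with 1 number was over 0.1, the fit without the block was kept, and a shared source of some pairs was not tested. The causes were not tested.

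With 1 library left out, the calls ranged from 83 to 106 at 3 hours (higher 35 to 45, lower 47 to 61), from 0 to 47 at 3 days (higher 0 to 5, lower 0 to 43), from 0 to 1 at 14 days (higher 0, lower 0 to 1), from 72 to 94 at 3 days against 3 hours (higher 24 to 36, lower 45 to 58), and from 94 to 118 over the 3 times together. In the same fits, which tested 15037 to 15131 genes, 5280 to 7271 of all genes were called at 3 hours and 359 to 3778 at 3 days. At 14 days 0 to 716 were called, at 3 days against 3 hours 3954 to 6231, and over the 3 times together 6238 to 8536. The medians of the ZNF genes ranged from -0.24 to -0.053, from -0.38 to -0.31, from -0.18 to -0.046 and from -0.27 to -0.13 in the same order of comparisons. Of the named genes past the threshold, 37 of 52 at 3 hours, 0 of 24 at 3 days and 33 of 49 at 3 days against 3 hours kept call and direction under all 18 alternatives. Groups of 3 libraries limit what can be called.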
